A study of Mus musculus with 6 samples.

Results

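This comparison set NMuMG cells treated with TGF-β for 11 days against vehicle control cells. Its members were chosen by the treatment entry of the sample labels, and are 4 of the 6 arrays of the series, 2 control and 2 TGF-β. NMuMG cells are immortalised mammary epithelial cells of a normal mouse, kept in medium with serum and insulin. The control group received vehicle, with no duration given, and the treated group received 4 ng/ml of TGF-β for 11 days, so the age of the control culture at harvest is unknown. The remaining 2 arrays, of cells treated the same way and then kept 13 days without TGF-β, entered the fit for the spread and the choice of each gene's probe set, and no difference to them is reported. Nothing in the labels tells if replicate arrays stem from separate cultures, so p-values reflect only how far these samples spread, and that spread may be technical. A free-text field of the labels calls the TGF-β arrays the cells of the reverse, epithelial transition, against their titles and treatment entries. The groups follow titles and treatments. Tagln, a smooth muscle gene that TGF-β is known to induce, read 12.69 and 12.61 (log2) on the arrays titled TGF-β, 6.97 and 6.82 on those titled withdrawal, and 6.89 and 6.92 in control.

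TGF-β is a secreted dimer that binds a pair of serine/threonine kinase receptors, which phosphorylate Smad2 and Smad3. These enter the nucleus with Smad4 and change transcription together with other factors. In epithelial cells, NMuMG among the best known, prolonged TGF-β is known to drive an epithelial-mesenchymal transition (EMT), in which cells lose junctions and apical-basal polarity, build actin stress fibres and deposit collagen-rich matrix. Repressors of the Snail, Zeb and Twist families shut epithelial genes in this process, and the Id proteins, which block basic helix-loop-helix factors, are known to be lowered by TGF-β in epithelial cells.

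Values are log2 expression per gene, so a difference of 1 is a doubling, and each gene is read by 1 probe set. A gene was called when its adjusted p in limma was under 0.05. Of 18193 genes, 2726 were called higher under TGF-β (15%) and 3175 lower (17.5%). These shares are the background for the list counts below, save those given for another setting. Differences of at least 1 were called upward for 496 genes (2.73%) and downward for 468 (2.57%). The median difference over all genes was -0.011. On 11806 genes (64.9%) the control and TGF-β arrays did not overlap, so lack of overlap alone says little. Across genes, which are not independent replicates, Pearson's r was 0.999 between the control arrays, 0.998 between the TGF-β arrays and 0.975 to 0.976 across the 2 groups. The RNA quality readings were close on all 4 arrays, with 3' minus 5' signals of 0.14 to 0.184 for actin and -0.182 to -0.149 for Gapdh. The spiked RNAs were not level. The poly-A spikes averaged 8.10 and 7.83 on the control arrays and 8.29 and 8.15 on the TGF-β arrays. Control replicate 1 thus lay closer to both TGF-β arrays than to control replicate 2, so the poly-A scale is itself uncertain. The hybridization spikes averaged 10.93 and 10.83 in control and 11.04 and 11.04 under TGF-β. After scaling to the poly-A spikes, which enter with the RNA, the median difference became -0.272, with 903 genes called higher and 5089 lower. After scaling to the hybridization spikes it was -0.17, with 1319 and 4408. List counts given below with a spike scaling have these counts of 18193 genes as their background. Differences are therefore relative to the arrays' common level, and small ones turn with the choice of scale; the part of the spike levels in the results was not tested. Other settings have their own background. Without the dimmest 40% of genes, 2862 of 10916 genes were called higher and 3381 lower, both larger shares than in the main fit. Without probe sets whose names are marked x, s or a, 2259 and 2573 of 16591 were. With an intensity trend in the fit the counts were 3168 and 3769 of 18193, and with the mean of probe sets 2604 and 2917. In RNA from a whole culture, fewer cells of a type and less RNA per cell cannot be told apart.

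Many of the strongest changes, though not all, crossed the median gene level. Of 135 genes that rose by at least 2, 85 had a control mean below the median gene level of 6.86 and a TGF-β mean above it. Of 133 genes that fell by at least 2, 67 went from above that level to below it. RMA compresses differences near background, so folds of such genes are understated. A further probe set of the same gene was called the same way for 234 of the 292 genes that rose by at least 1 and had one, and in the opposite direction for 2. For genes that fell by at least 1 these counts were 183 of 252 and 1.

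**Figure D1:**
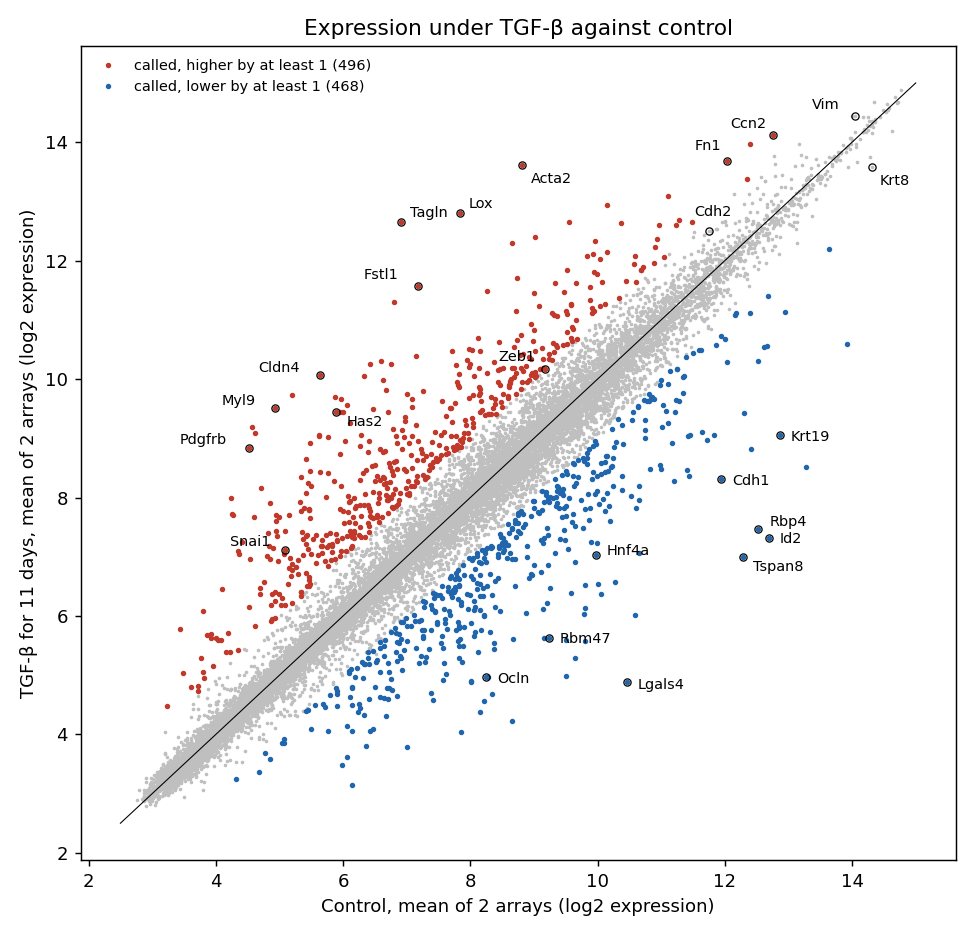
Each point is a gene, with its mean log2 expression on the 2 control arrays on the horizontal axis and on the 2 TGF-β arrays on the vertical axis. Red and blue points are genes called higher (496) or lower (468) by at least 1, grey points are all others, and the line marks equality. Tagln and Acta2 stand far above the line and Lgals4, Id2 and Rbp4 far below it, while Vim and Krt8, bright in both groups, lie near it.

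The contractile programme of smooth muscle rose, led by smooth muscle actin, a myosin light chain and the calponin family. Acta2, smooth muscle α-actin, read 8.81 and 8.80 on the control arrays and 13.63 and 13.61 on the TGF-β arrays. Myl9, the regulatory light chain of myosin, read 5.04 and 4.83 against 9.53 and 9.48. Cnn1, the actin-binding protein calponin, read 5.58 and 5.69 against 8.30 and 8.57. In each case both TGF-β arrays stood above both control arrays, and the folds were 28.1, 23.8 and 6.99, with Tagln at 53.6 (limma's adjusted p between 1.09e-06 and 1.3e-05 for these 4 genes). Of 31 measured contractile and smooth muscle genes, 20 rose, 3 fell and 8 were not called, with a median difference of 0.652. The counts were 15 and 3 with poly-A scaling, with a median of 0.391. The cytoskeletal members Csrp1 (1.98), Cnn2 (1.64), the non-muscle myosin heavy chain gene Myh10 (1.46) and the adhesion plaque gene Vcl (1.36) rose less. The direction was not uniform. Mylk, the kinase that phosphorylates the Myl9 product, read 8.04 and 8.10 in control and 5.83 and 5.63 under TGF-β, so it fell by 2.34 ± 0.077 (SE), and all 3 of its probe sets fell. Several late smooth muscle markers were not called, among them the myosin heavy chain gene Myh11 (0.04), the desmin gene Des (-0.02) and Synpo2 (0.04). Myh11 and Synpo2 also stayed below the median gene level on all 4 arrays.

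The 250 bases before the start of 2 of these contractile genes are shown, because both rose strongly and each holds a motif known from smooth muscle promoters. They come from RefSeq on GRCm38.p6, 5′ to 3′ on the gene's strand, at chr19:34255374-34255623 (minus strand) for Acta2 and chr2:156775214-156775463 (plus strand) for Myl9. Capitals mark the MCAT motif CATTCC, which TEAD factors are known to bind, in Acta2, where it lies on the other strand, and the CArG box, the known site of serum response factor, in Myl9.
Acta2: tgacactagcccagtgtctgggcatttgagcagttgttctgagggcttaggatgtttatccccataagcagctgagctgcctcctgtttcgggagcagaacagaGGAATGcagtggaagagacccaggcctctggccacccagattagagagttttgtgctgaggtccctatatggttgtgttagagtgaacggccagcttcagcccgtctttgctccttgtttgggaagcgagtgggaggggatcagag
Myl9: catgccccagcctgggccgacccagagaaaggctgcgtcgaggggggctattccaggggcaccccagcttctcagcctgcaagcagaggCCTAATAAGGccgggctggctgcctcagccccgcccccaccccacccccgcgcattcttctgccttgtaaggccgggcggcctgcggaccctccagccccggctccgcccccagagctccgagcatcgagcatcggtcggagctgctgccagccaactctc
Both strands were searched in every such window. CATTCC was present for 9 of the 18 called-up contractile genes with a promoter in the table (50%), against 13.4% of the 14452 genes with one. The CArG box was present for 3 of these 18, Cnn2, Myl9 and Vcl, against 1.43% of all. Only the exact pattern CCWWWWWWGG was counted, with W for A or T. The Acta2 window holds ccctatatgg and ccttgtttgg, each 1 base off that pattern, which were not counted. The MCAT share was 14.8% among all genes that rose by at least 1 and 15.3% among those that fell by at least 1. The CArG shares of these 2 sets were 3.69% and 2.47%. A match describes the letters only, and genes with several starts had several windows.

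**Figure D2:**
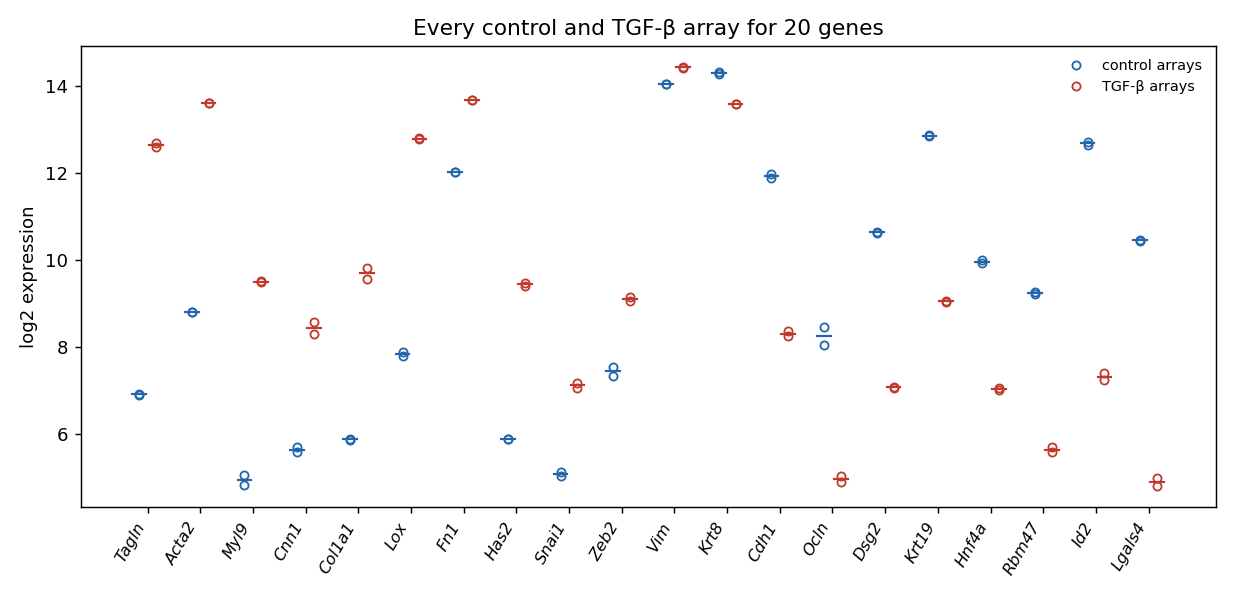
Open circles give the log2 expression of 20 genes on every control (blue) and TGF-β (red) array, and bars give the mean of the 2 arrays of a group. The 2 arrays of a group lie close together for each gene, and no gene shown overlaps between groups. They run from Tagln, higher by 5.75, to Lgals4, lower by 5.57, with Vim and Krt8 differing least. The genes were picked with their values known, and 64.9% of all genes did not overlap either.

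Some genes acting on the actin cytoskeleton are given singly. Cdc42ep3, a Cdc42 effector, rose by 3.23 ± 0.059 and the actin-severing protein gene Gsn by 2.27. The related Cdc42 effector gene Cdc42ep5 fell by 2.29, and Cdc42ep1 (-0.15) was not called. The transcription factor gene Srf rose by 1.09, and the gene of its coactivator Mrtfa by 0.58, the latter 0.32 and not called with poly-A scaling. The ERM proteins link actin to the membrane, and their genes parted: Msn, moesin, rose by 0.71 while Rdx, radixin, fell by 0.43 and Ezr, ezrin, fell by 1.73. Vil1, which encodes villin of microvilli, fell by 2.53, from 7.80 and 7.85 to 5.15 and 5.42.

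Fibrillar collagen genes and the enzymes that mature collagen rose together. Col1a1 read 5.85 and 5.89 in control and 9.57 and 9.83 under TGF-β, a 14.2-fold difference. Col5a3 read 5.76 and 6.18 against 9.59 and 9.75, and Col3a1 4.48 and 4.55 against 6.24 and 6.05. Both type I chains and the 3 type V chains measured rose, as 9 of 13 fibrillar and fibril-associated collagen genes did. Their median difference was 0.61. Scaled to the poly-A spikes, 6 of the 13 rose and 2 fell, with a median of 0.35. Col6a1 and Col6a2, chains of the beaded-filament collagen VI, fell by 0.30 and 0.47, while Col6a3, the third chain, rose by 0.61, or 0.35 and not called with poly-A scaling. Among 20 enzymes and chaperones of collagen synthesis and crosslinking, 17 rose and 0 fell, with a median of 1.11. They cover successive steps: the prolyl hydroxylase subunit gene P4ha3 (2.10) and the lysyl hydroxylase gene Plod2 (1.98) modify the chains, Serpinh1 (1.87) encodes the collagen chaperone, Bmp1 (1.53) and its enhancer gene Pcolce2 (2.32) trim the propeptide, and Lox and Loxl1 crosslink the fibres. Lox read 7.88 and 7.79 in control and 12.79 and 12.81 under TGF-β, and Loxl1 6.16 and 5.83 against 9.49 and 9.40.

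Genes of the secretory pathway were more often called higher than lower. Of 36 measured, 24 rose, 2 fell and 10 were not called, with a median of 0.349. With poly-A scaling 9 rose and 3 fell, with a median of 0.0881, and with hybridization spikes 16 and 3. The largest rises were those of Creb3l1 (2.77), a membrane-bound transcription factor of the endoplasmic reticulum, Kdelr3 (2.26), a retrieval receptor, and Sec24d (2.00), a coat subunit of the vesicles that carry procollagen. Kdelr3 read 8.02 and 7.98 against 10.30 and 10.21. Rcn1, a calcium-binding protein of the endoplasmic reticulum, rose 13-fold, from 6.71 and 6.50 to 10.32 and 10.29. The general stress factors Atf4 (0.07) and Atf6 (0.13) were not called.

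Matricellular proteins, which sit in the matrix and signal to cells, were among the largest rises. Fstl1 read 7.17 and 7.19 against 11.57 and 11.57, Smoc2 4.71 and 4.71 against 8.28 and 8.05, and Thbs1, thrombospondin 1, an activator of latent TGF-β, 9.62 and 9.49 against 12.65 and 12.67. Of 24 measured, 13 rose, 3 fell and 8 were not called, with a median of 0.603. Fn1, fibronectin, was bright in control at 12.03 and 12.04 and rose by 1.65, and Tnc (2.25), Postn (2.17) and Ccn4 (2.37) rose as well. Igfbp4, which encodes a binding protein of insulin-like growth factors, fell 13-fold, from 10.22 and 10.32 to 6.63 and 6.51, and all 6 of its probe sets fell. Of 15 elastic fibre and latent TGF-β binding genes 3 rose and 0 fell, or 3 and 2 with either spike scaling. Those that rose were Ltbp2 (4.53), Ltbp1 (1.11) and Fbln2 (0.98), while the elastin gene Eln (-0.01) was not called and lay under the median gene level.

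Hyaluronan turnover and membrane proteoglycans changed too. Has2, a hyaluronan synthase, read 5.89 and 5.89 in control and 9.48 and 9.41 under TGF-β, an 11.8-fold rise, and Cemip, which encodes a hyaluronan-binding protein needed for its breakdown, read 4.18 and 4.32 against 7.70 and 7.75. Of 25 proteoglycan and hyaluronan genes, 11 rose and 2 fell, or 6 and 5 with poly-A scaling and 7 and 4 with hybridization spikes, and the median, 0.0889, turned to -0.172 and -0.0699 with the poly-A and hybridization spikes. The glypican genes Gpc4 (2.38) and Gpc1 (1.68), and Vcan (2.05), a large hyaluronan-binding proteoglycan, rose. The small leucine-rich proteoglycan genes Dcn (-0.13), Lum (-0.07) and Fmod (0.17), typical of fibroblasts, were not called, and Dcn and Lum stayed below the median gene level.

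Of 31 matrix protease and inhibitor genes, 12 rose and 6 fell, or 8 and 9 with poly-A scaling and 9 and 9 with hybridization spikes. The inhibitor gene Timp3 rose from 9.01 and 9.01 to 12.36 and 12.42, the aggrecanase gene Adamts5 by 3.07, the urokinase gene Plau by 2.27 and Mmp14, a membrane-anchored collagenase, by 1.21. Mmp13, a secreted collagenase, fell from 7.86 and 7.84 to 3.80 and 4.29. Spint2, which encodes an inhibitor of epithelial membrane proteases, fell by 2.92.

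Members of several adhesion and receptor families moved in opposite directions, and the families described here were picked for this after their values were seen. Among integrins, the receptors of cells for matrix, 5 of 20 rose and 6 fell, or 3 and 10 with poly-A scaling and 5 and 9 with hybridization spikes. Itga5, the fibronectin-binding α5 subunit, read 6.69 and 6.59 against 8.40 and 8.26, and Itgb5 and Itgb3, partners of αv, rose by 1.59 and 1.47. Itga6 and Itgb4, which together form the laminin receptor of hemidesmosomes, fell by 2.11 and 1.33, with Itga6 going from 10.08 and 10.09 to 7.97 and 7.98. Their ligands parted as well: of 21 basement membrane genes 7 rose and 6 fell, or 7 and 7 with poly-A scaling, and Lamb3, a chain of the epithelial laminin-332, fell by 1.77 ± 0.094, while the type IV collagen genes Col4a1 and Col4a2 both rose by 1.15. The FGF receptor gene Fgfr1 rose by 3.02 ± 0.083 and Fgfr2 and Fgfr3 fell by 0.67 and 1.30. On its other probe sets Fgfr2 was lower by 0.45, called, and by 0.05, not called. Fgfr1 read 6.36 and 6.59 against 9.51 and 9.48. Among the syndecans, Sdc3 (1.38) and Sdc2 (1.21) rose, and Sdc4 (-0.98) and Sdc1 (-0.43), the epithelial syndecan, fell. Among frizzled Wnt receptors Fzd2 (0.89) rose and Fzd7 (-1.62) fell.

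**Figure D3:**
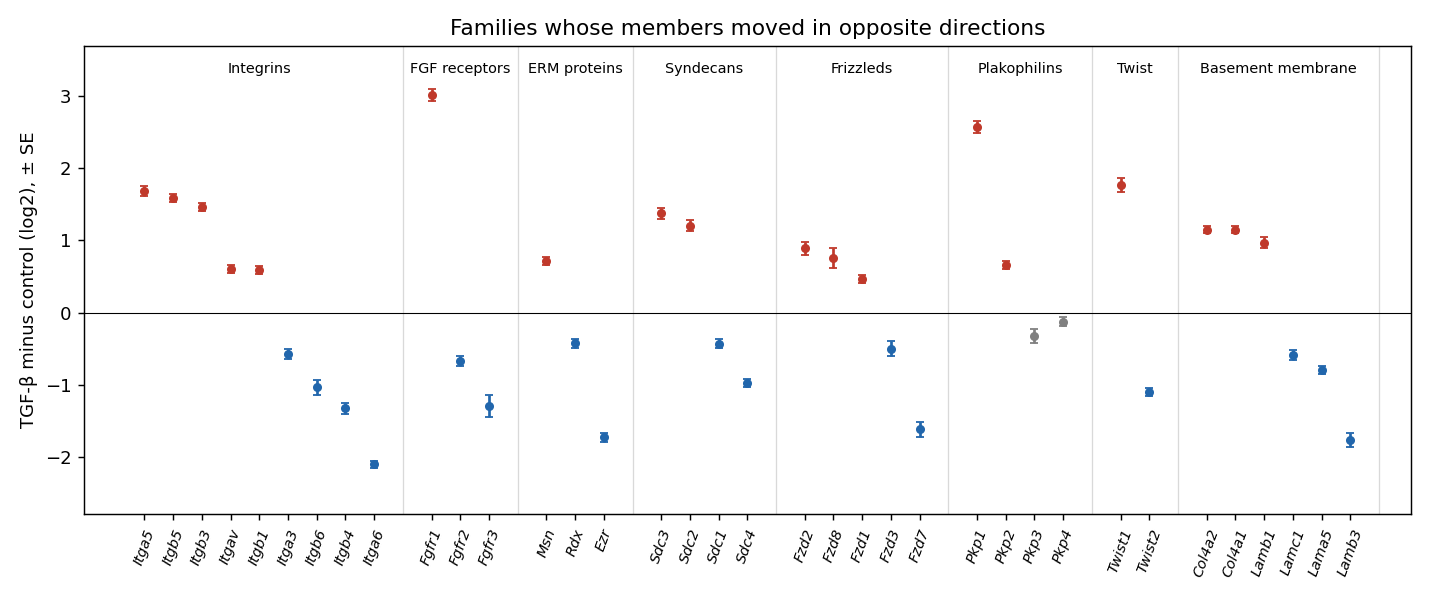
Points give the difference between the TGF-β and control means (log2) of single genes with their standard error from limma, grouped by family; red points are called higher, blue lower and grey not called. Itga5 (1.69) and Itga6 (-2.11), Fgfr1 (3.02) and Fgfr3 (-1.30), and Twist1 (1.77) and Twist2 (-1.10) mark the ends of their families, which were picked after their values were seen.

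Of 24 measured transcription factors linked to EMT, 14 rose, 3 fell and 7 were not called, with a median of 0.479. Of these falls 1 was called without control replicate 1, control replicate 2 or TGF-β replicate 2. Snai1 read 5.12 and 5.04 in control and 7.06 and 7.17 under TGF-β, Twist1 6.06 and 5.93 against 7.89 and 7.64, and Zeb2 7.55 and 7.34 against 9.06 and 9.16. Snai2, the paralogue of Snai1, rose by 0.87. Zeb1, already at 9.17 and 9.18 in control, reached 10.18 and 10.17. The largest rise was that of the zinc finger gene Bnc2, from 4.29 and 4.95 to 9.25 and 8.93, then Foxc2 (2.49) and Runx1 (2.22). Twist2 went the other way from Twist1 and fell from 8.13 and 8.10 to 7.03 and 6.99. Sox4 (0.04) and Ets1 (-0.07), bright in control, were not called. Scaled to the poly-A spikes, 10 of the 24 factors rose and 3 fell, with a median of 0.218.

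Among regulators of epithelial identity the largest falls were those of Rbm47 and of factors known from gut and liver. Rbm47, an RNA-binding protein of epithelial cells, read 9.21 and 9.27 in control and 5.69 and 5.57 under TGF-β. Hnf4a, a nuclear receptor known from liver, kidney and gut epithelium, read 9.93 and 10.01 against 7.07 and 7.01, and all 4 of its probe sets fell. Foxa2, a forkhead factor of the same organs, fell by 2.69, Esrp2, an epithelial splicing regulator, by 1.73, and the Krüppel-like factor genes Klf4 (-1.40) and Klf5 (-1.18) fell too. Of 23 measured, 9 fell, 3 rose and 11 were not called, with a median of -0.238, while 12 fell and 1 rose with either spike scaling, and 9 and 1 without TGF-β replicate 2. Regulators that are standard for mammary and other epithelia, Grhl2 (0.00), Esrp1 (-0.24), Elf5 (-0.07) and Ovol2 (-0.05), were below the median gene level on all 4 arrays and were not called.

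Junction genes fell in part. Cdh1, E-cadherin, read 11.99 and 11.89 in control and 8.37 and 8.25 under TGF-β. Cdh17, a cadherin known from gut epithelium, read 9.79 and 9.82 against 6.21 and 6.07. Cdh2, N-cadherin, which replaces E-cadherin in mesenchymal cells, was already at 11.78 and 11.72 in control and reached 12.50 and 12.51. The neural cadherin gene Cdh10 rose from 4.14 and 4.33 to 7.84 and 8.13. Of the cytoplasmic partners Ctnnb1, β-catenin, fell by 0.62 and Ctnna1, α-catenin (-0.0011), was not called. In all, 4 of 18 adherens junction genes rose and 7 fell. The counts were 2 and 9 with either spike scaling. Of 16 measured without probe sets whose names are marked x, s or a, 4 rose and 4 fell. Fewer falls were called without control replicate 2 or without TGF-β replicate 1.

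In tight junctions 8 of 24 genes fell and 4 rose, or 9 and 2 with either spike scaling. Of the 11 left without the dimmest genes 6 fell and 2 rose. Fewer of the 24 were called either way without control replicate 1 or 2. Ocln read 8.46 and 8.04 against 4.89 and 5.03, and Cldn2, a pore-forming claudin, 12.27 and 12.32 against 9.48 and 9.37. Tricellulin, encoded by Marveld2, fell by 1.91 and the scaffold gene Tjp1 by 0.75. Cldn4, a sealing claudin, rose from 5.88 and 5.39 to 10.06 and 10.07, by 4.43 ± 0.15. It is read by 1 probe set. In desmosomes 7 of 19 genes fell and 3 rose, or 4 and 3 of 16 without probe sets marked x, s or a. Dsg2 fell from 10.65 and 10.63 to 7.08 and 7.05 in all 6 of its probe sets, and Dsp, desmoplakin, and Ppl, periplakin, fell by 2.43 and 2.41. Pkp1, a plakophilin, rose by 2.57 ± 0.087. Of 24 polarity and sorting genes 9 fell and 3 rose, or 10 and 1 with poly-A scaling. Of the 19 left without the dimmest genes 10 fell and 5 rose. The Par complex gene Pard6b was at -1.50 and Patj at -1.18, while Dlg3 (1.96) and Mpp5 (0.55) rose. Epcam was not called on its brighter probe set (0.19), whose name marks possible cross-hybridisation, and fell by 0.43 on the other.

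Krt19 read 12.85 and 12.88 in control and 9.04 and 9.05 under TGF-β, and Krt20, a gut keratin, 10.66 and 10.66 against 8.18 and 8.21. Krt8 and Krt18, the main pair of simple epithelia, fell by 0.73 and 0.53, with Krt8 going from 14.29 and 14.33 to 13.59 and 13.58. Vim, vimentin, was as bright in control, at 14.06 and 14.04, and rose to 14.45 and 14.43, by 0.39 ± 0.048. With the poly-A and hybridization spikes the Vim difference was 0.13 and 0.23 and not called. On its other probe sets, with values as deposited, Vim was higher by 0.34, called, and by 0.22, not called. Nes, nestin, rose by 2.17. Of 21 keratins and other filament genes 8 fell, 3 rose and 10 were not called. The basal keratin genes Krt5 (-0.08) and Krt14 (-0.01) were not called.

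Secretory and absorptive epithelial genes held several of the largest falls. Lgals4, a galectin of gut epithelium, read 10.45 and 10.47 in control and 4.99 and 4.79 under TGF-β, a 47.4-fold fall. Tspan8, a tetraspanin of secretory epithelia, read 12.26 and 12.30 against 7.01 and 6.99, and Rbp4, the plasma carrier of retinol, 12.51 and 12.54 against 7.54 and 7.38. Hpx, haemopexin, a haem-binding plasma protein made in liver, fell from 9.48 and 9.52 to 5.60 and 5.59, and the mucin gene Muc1 from 10.01 and 10.10 to 6.42 and 6.32. Of 34 measured, 15 fell, 1 rose and 18 were not called, with a median of -0.245. The gene that rose was Cubn (0.53), at 0.27 and not called with poly-A scaling. Clu (-0.08), the secreted chaperone clusterin, stayed at or above 13.28 on every array. Of the 34 genes, 15 were below the median gene level in both groups.

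The 250 bases before the start of Lgals4 (chr7:28833544-28833793, plus strand) and Muc1 (chr3:89228806-89229055, plus strand) are shown because both genes fell strongly and hold the E-box CAGGTG, a sequence that Snail and Zeb repressors are known to bind. Capitals mark it on either strand (CAGGTG or CACCTG), in RefSeq sequence of GRCm38.p6 read 5′ to 3′.
Lgals4: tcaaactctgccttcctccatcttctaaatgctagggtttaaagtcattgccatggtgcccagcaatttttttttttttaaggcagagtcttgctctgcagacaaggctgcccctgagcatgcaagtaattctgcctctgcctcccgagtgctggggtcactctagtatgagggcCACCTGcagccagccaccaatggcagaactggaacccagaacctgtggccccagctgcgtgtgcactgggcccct
Muc1: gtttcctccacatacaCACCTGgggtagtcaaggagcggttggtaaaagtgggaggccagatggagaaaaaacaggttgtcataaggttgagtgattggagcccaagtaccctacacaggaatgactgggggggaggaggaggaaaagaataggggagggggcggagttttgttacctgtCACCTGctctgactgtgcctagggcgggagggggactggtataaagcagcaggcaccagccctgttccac
This E-box was present for 30.1% of the 365 genes that fell by at least 1 and had a promoter in the table, for 18.5% of the 379 that rose by at least 1, and for 19.9% of all. Per promoter rather than per gene the shares were 25.7%, 15.1% and 17.2%. Among the secretory genes that fell it was present for 7 of 13, namely Lgals3, Lgals4, Muc1, Wfdc2, Apob, Sult1c2 and Selenop. The AP-1 sequence TGANTCA was held by 13.4% of the genes that fell and 10.6% of those that rose, against 6.7% of all, and the Smad sequence CAGACA by 17.5% and 19.8%, against 17.2%. These shares are descriptions, and no test was made of them.

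The TGF-β pathway itself was altered at several levels. Of 6 ligand and activin genes 4 rose and 1 fell, with a median of 0.618. Inhba, the activin βA subunit, rose from 11.08 and 11.12 to 13.07 and 13.10, Tgfb2 from 8.60 and 8.66 to 9.94 and 10.00, and Tgfb1 by 0.57. Of 9 receptor genes 2 rose and 2 fell, or 1 and 5 with poly-A scaling and 2 and 4 with hybridization spikes. Tgfbr1, the type I receptor, fell from 10.19 and 10.07 to 8.76 and 8.64 on its brightest probe set, while its other 2 were not called (-0.21 and -0.14). Tgfbr2, the type II receptor, rose by 0.67 on 1 probe set, with the other 2 not called. The mean of its probe sets, 0.22, was not called. Of 16 Smad genes and Smad inhibitors 9 rose and 2 fell, or 3 and 3 with poly-A scaling. Smad6, an inhibitor mainly of BMP signalling, fell by 1.07, and the feedback inhibitor genes Pmepa1 and Smad7 rose by 0.87 and 0.57. Smad3, a mediator, fell by 0.31, and Smad2 (-0.06) and Smad4 (-0.18) were not called. Without probe sets marked x, s or a, Smad2 was higher by 0.30 (adjusted p = 0.0157 in limma). With poly-A scaling Tgfb1 (0.31) and Smad7 (0.31) were not called. Among 21 measured genes known as direct targets, 17 rose, 1 fell and 3 were not called, with a median of 0.874. With poly-A scaling 11 rose and 1 fell. Ltbp2, which encodes a latent TGF-β binding protein of the matrix, read 5.01 and 5.39 against 9.70 and 9.76, and Il11, a fibrosis-linked cytokine gene, 8.24 and 8.29 against 11.51 and 11.47. The one that fell was the αv-partner integrin gene Itgb6 (-1.04). The matrix gene Tgfbi (0.41) and the cell cycle inhibitor gene Cdkn2b (0.16), both classical targets, were not called (adjusted p = 0.0966 and 0.0862 in limma).

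Of 18 BMP and Id genes 6 rose and 4 fell, or 5 and 5 with poly-A scaling. Id2 read 12.72 and 12.66 in control and 7.40 and 7.23 under TGF-β, a 41.5-fold fall, and Id1 11.62 and 11.65 against 9.08 and 9.12. Id3 (0.10) was not called, at 9.64 and 9.64 against 9.75 and 9.75, so the Id genes did not change alike. The BMP ligand genes Bmp2 and Bmp4 fell by 2.59 and 1.73, and Msx2, a homeobox gene that BMP induces in many tissues, rose by 2.20. Fst, follistatin, which binds activin, rose by 1.38.

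Cxcl12, the ligand of Cxcr4, read 6.85 and 6.76 in control and 11.30 and 11.30 under TGF-β. The neutrophil attractant genes Cxcl5 and Cxcl1 fell by 3.07 and 1.82, Cxcl5 from 11.49 and 11.38 to 8.38 and 8.34, and Ccl20 and the alarmin gene Il33 fell by 2.15 and 2.77. Over 31 chemokine, cytokine and receptor genes 11 rose and 7 fell, or 6 and 10 with poly-A scaling and 8 and 9 with hybridization spikes. Without TGF-β replicate 1 the counts were 7 and 7. Pdgfrb, a receptor of mesenchymal cells, rose from 4.42 and 4.62 to 8.86 and 8.81, with its ligand gene Pdgfd at 2.66, while Pdgfra (0.14) was not called. The angiogenic factor genes Vegfa and Vegfc rose by 1.70 and 1.82. Fgf13 fell from 9.98 and 10.05 to 6.61 and 6.47. In all 13 of 42 growth factor and receptor kinase genes rose and 12 fell, or 8 and 15 with poly-A scaling and 9 and 15 with hybridization spikes.

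Of 40 Wnt genes 9 rose and 8 fell, or 5 and 11 with either spike scaling. Of the 19 left without the dimmest genes 7 rose and 5 fell. Wnt5a, a ligand that mostly acts without β-catenin, read 6.07 and 6.16 against 9.29 and 9.24, and Wnt9a rose by 2.75. Lgr4, a receptor that strengthens Wnt signals, fell by 1.34, and the β-catenin target gene Axin2 (-0.02) was not called. In the Notch pathway 2 of 18 genes rose and 2 fell, with Jag1, a ligand, at 1.02 and Notch1 at -1.31. Notch1 was called on 1 of its 2 probe sets. The falls of this list numbered 4 with poly-A scaling or with the mean of probe sets, and 5 with an intensity trend in the fit. Of the 12 left without the dimmest genes 5 fell. Of 21 genes linked to the coactivator YAP and TEAD factors 12 rose and 1 fell, with a median of 0.28. With poly-A scaling 7 rose and 3 fell, with a median of 0.0192, and with the mean of probe sets 11 and 3. They included Vgll3 (2.47) and the target genes Ccn2 (1.36) and Ankrd1 (1.00), whereas Yap1 (0.17) and its paralogue Wwtr1 (-0.09) were not called. Among 37 axon guidance genes, whose products also steer other migrating cells, 12 fell and 4 rose, or 16 and 2 with poly-A scaling, 13 and 2 without TGF-β replicate 1, and 13 and 7 with an intensity trend in the fit. Sema3e fell from 9.88 and 9.89 to 7.72 and 7.92, and Epha7 by 1.68.

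Growth genes fell by small amounts and in large numbers. Of 31 mitosis genes 23 fell and 0 rose, with a median of -0.334, and of 35 DNA replication genes 26 fell and 0 rose, with a median of -0.352. Ccnb2, a mitotic cyclin, read 10.90 and 10.86 in control and 9.68 and 9.64 under TGF-β, and was the only one of either list to fall by at least 1. Mki67, a marker of cycling cells, fell by 0.78. With poly-A scaling the medians were -0.595 and -0.613. Of 33 cell cycle inhibitors and G1 regulators 12 rose and 9 fell, or 5 and 11 with poly-A scaling and 8 and 11 with hybridization spikes. The growth arrest genes Gadd45g and Gadd45a rose by 2.18 and 1.39, Gadd45g from 9.90 and 9.95 to 12.11 and 12.10. Gas1, another gene known from arrested cells, fell by 1.70. Cdkn1a, an inhibitor gene that TGF-β induces in many cells, rose by 0.52. With poly-A scaling the Cdkn1a difference was 0.26 and not called. Myc rose by 0.40, opposite to the fall that TGF-β is known to cause in epithelial cells, and with the poly-A and hybridization spikes, or without control replicate 2 (0.32) or TGF-β replicate 2 (0.35), it was not called. Of 20 cholesterol synthesis genes 13 fell and 1 rose, with a median of -0.267. The falls numbered 8 without control replicate 1, and 7 without control replicate 2 or without TGF-β replicate 2. Tm7sf2 (-0.72), a sterol reductase gene, fell most, and the regulator gene Srebf2 fell by 0.62.

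Of 30 interferon and class I antigen presentation genes 11 rose and 1 fell, with a median of 0.181 that turned to -0.08 with poly-A scaling. The counts were 6 and 2 with poly-A scaling and 7 and 0 of 20 without probe sets marked x, s or a. The class I genes H2-K1 (1.85) and H2-D1 (1.64) rose most, and cannot be told apart with certainty because they are closely similar in sequence. The antiviral genes Ifit1 (0.01), Mx1 (0.05) and Rsad2 (-0.03) were not called.

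Other genes at the head of the list belong to no group above. Klhl30 read 4.72 and 4.41 in control and 9.22 and 9.17 under TGF-β. Pcdh19, a protocadherin, read 6.57 and 6.27 against 10.25 and 10.26, and Prss23, a serine protease gene, 8.69 and 8.62 against 12.40 and 12.20. Bcat1, the cytosolic enzyme that transaminates branched-chain amino acids, rose from 6.10 and 6.03 to 9.55 and 9.58, and Ctsw, a cathepsin gene known from lymphocytes, from 6.35 and 6.31 to 10.00 and 10.09. Among the falls, the scaffold gene Iqgap2 went from 9.49 and 9.52 to 4.96 and 5.03, the reductase gene Akr1c19 from 8.60 and 8.72 to 4.15 and 4.31, and Sprr1b, an envelope precursor of squamous epithelium, from 9.78 and 9.81 to 5.52 and 5.64. Lmo7 and Frmd4b, of which the first encodes a junction-associated protein, fell by 3.75 and 3.66. Akr1c19, the glucuronosyltransferase gene Ugt2b34 (-3.65) and Serpina1b (-4.36) belong to families of near-identical copies, and their values are uncertain for that reason.

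**Figure D4:**
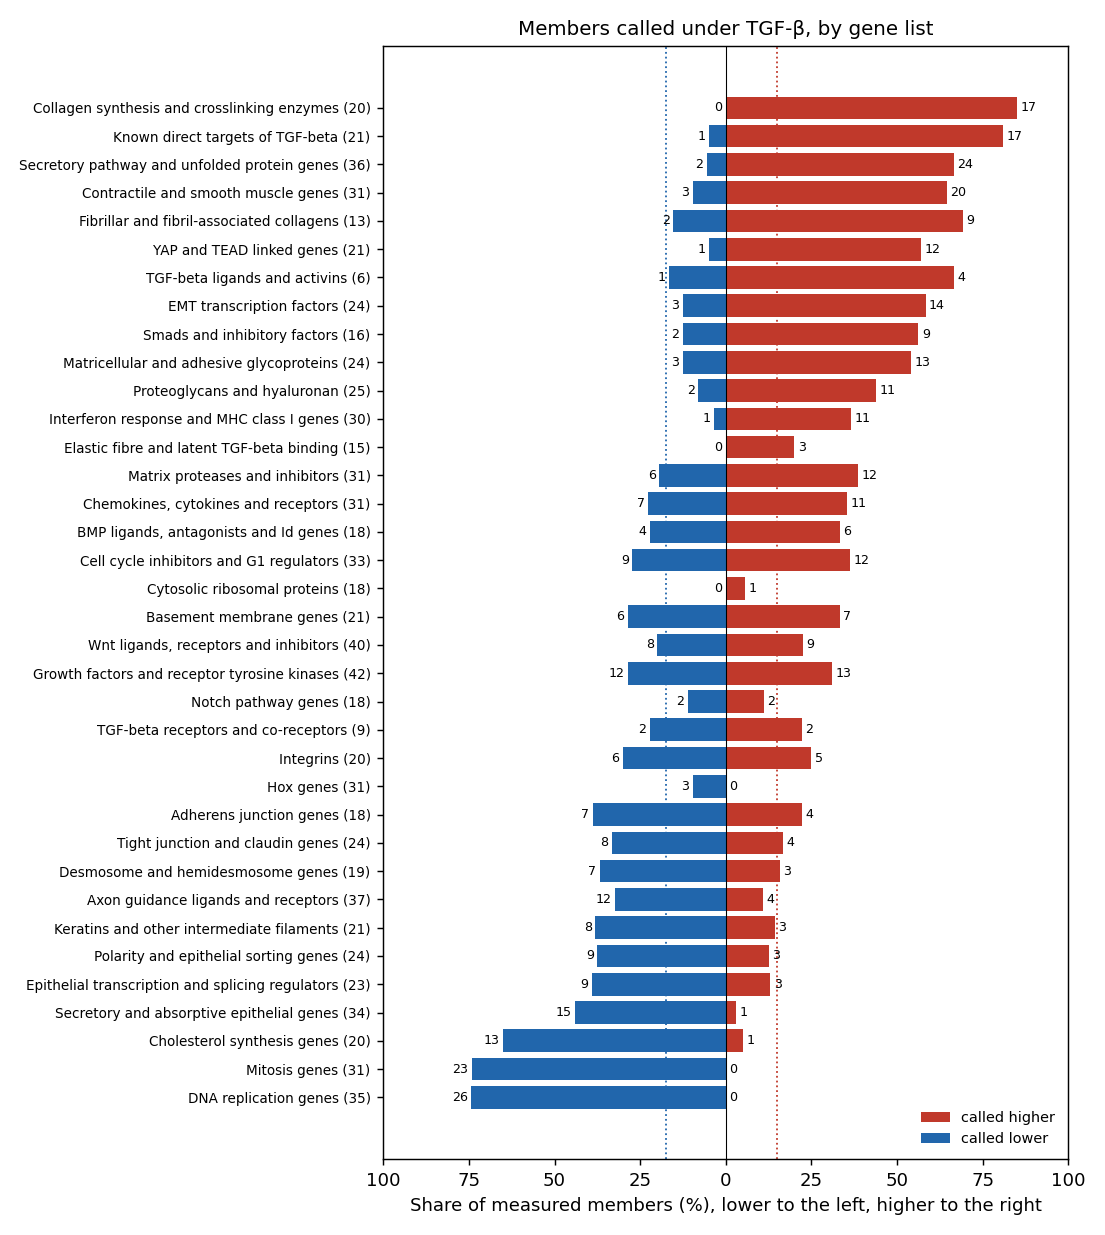
Bars give, for each gene list shown, the share of measured members called higher (red, to the right) and called lower (blue, to the left) under TGF-β, with the count at the bar's end and the number measured in brackets; dotted lines mark the shares over all genes, 15% and 17.5%. Collagen enzymes, known targets and secretory pathway genes lie far to the right, DNA replication and mitosis genes far to the left, and Hox and ribosomal protein genes hold few called members.

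The labelled cell type was checked against markers. Of 10 general epithelial markers, 7 had a group mean above the median gene level, and 5 fell. Their summed linear signal was 52450 and 52550 in control and 27350 and 27650 under TGF-β, carried mainly by Krt8 and Krt18. In short marker sets, 0 of 6 basal and myoepithelial markers and 1 of 7 luminal ones, Foxa1, lay above that level. Foxa1 (0.38) and Gata3 (0.83), both luminal transcription factors, were called higher. Foxa1 was called with neither spike scaling, and Gata3 (0.72) was not called without TGF-β replicate 2. In longer lists, 5 of 15 myoepithelial and basal markers rose and 2 fell, each by at least 1, and 9 lay below the median gene level in both groups. Those that rose were Acta2, Cnn1, Procr, Jag1 and Actg2, and those that fell were Mylk and Itga6. Of 17 luminal markers 2 rose and 5 fell, and 10 were below that level in both groups. The milk protein genes Csn2 and Wap were below it on all 4 arrays. Of short sets of endothelial (6), leukocyte (6), adipocyte (4) and skeletal muscle (5) markers 0 lay above it, and 1 of these 21 was called, the endothelial cadherin gene Cdh5, which fell by 0.26 at a level near background. Leaving out any array but TGF-β replicate 2 ended that call. Longer lists held brighter members that fell. Of 19 macrophage and leukocyte markers 0 rose and 2 fell, the mannose receptor gene Mrc1, from 8.45 and 8.31 to 5.40 and 5.69, and the endotoxin co-receptor gene Cd14, from 11.22 and 11.24 to 9.66 and 9.64. Without control replicate 2, 4 of these 19 fell. Of 16 endothelial markers 0 rose and 2 fell, Cdh5 and the VEGF receptor gene Flt1 (-0.33). Of 12 adipocyte markers 0 rose and 2 fell, the regulators Pparg (-1.17) and Cebpa (-0.58). With poly-A scaling 6, 4 and 5 members of these lists fell, where 5089 of all 18193 genes were called lower. In a longer fibroblast list of 15 markers 6 rose and 1 fell, S100a4 (1.56) and Postn among the former and Twist2 the latter. Of 8 fibroblast markers in the short set 4 rose, all collagen genes or Pdgfrb, and Thy1 (0.19), Dcn, Lum and Pdgfra were not called. Of 6 neural markers 2 rose: Tubb3, a neuronal tubulin, from 4.40 and 4.14 to 7.61 and 7.79, and Map2, a microtubule-associated protein gene, 9.52-fold on the mean of both arrays, while Syp (-0.13), Gfap (-0.13) and Sox10 (-0.09) were not called. Rbfox3, a neuronal nuclear protein gene, was called lower by 0.19 with limma's adjusted p = 0.0484, and leaving out any 1 array ended this call. Of 13 neural and neural crest markers in the longer list 2 rose and 2 fell, the second fall being that of the neurotrophin receptor gene Ngfr (-0.36), which at -0.17 was not called with the mean of its probe sets. In a longer skeletal muscle list of 14 genes the acetylcholine receptor gene Chrna1 (2.76) and skeletal α-actin, Acta1 (2.37), rose without the myogenic factors Myod1 (-0.02) and Myog (0.10). Hox genes, which record position in the body, gave 3 called of 31 (9.68%), all lower. Cytosolic ribosomal protein genes gave 1 of 18 (5.56%), and both shares lay below that over all genes, 32.4%. Of the 31 Hox genes, however, 26 were below the median gene level in both groups, so their few calls say little about stability. Of the Hox genes 10 fell with poly-A scaling, 9 with hybridization spikes and 1 of 7 measured without the dimmest genes.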

How the data were processed

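Total RNA of NMuMG cells was labelled with a 3' IVT kit, with poly-A spikes, and hybridised to mouse expression arrays, per the labels' protocols. The authors deposited log2 values for 45101 probe sets, which the submitters' processing notes credit to RMA. The build is not given in the sources used here. Probe sets were named through the platform annotation: 34945 had 1 symbol, 932 several and 9160 none, and 64 were controls. Each of 18193 genes is represented by whichever of its one-symbol probe sets was brightest on average across the 6 arrays. All 6 arrays were fitted with limma 3.58.1 (lmFit, eBayes) in R 4.3.3, without a block, and p-values were adjusted by Benjamini-Hochberg over all genes, with 0.05 as the threshold. The fit was tested on simulated data. No depth exists for arrays; their number, 2 a group, limits the precision.

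The comparison and gene lists were chosen with earlier results of these data known. Genes were named by a rule: the 25 largest called changes each way among genes above the median level, up to 8 called, 3 opposing and 3 uncalled members of each list, and a panel of 30 genes, of which 29 were measured. Other list members named were chosen after their values were seen, among them Vcl, Srf, Mrtfa, Msn, Fst, Fgfr2, Fgfr3, Myh11 and Synpo2. Alternatives concerned the arrays in the fit, replicate number, dim genes, choice of probe set, scaling and each array left out. A gene list, of actin regulators, is not counted here.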

Additional observations from a re-analysis of the deposited data

How the results depend on the processing

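Scaling was the choice that moved counts most: 2726 genes were called higher and 3175 lower as deposited, 903 and 5089 with poly-A spikes, and 1319 and 4408 with hybridization spikes. Genes called lower by at least 1 numbered 756 with poly-A spikes, against 468. The cause of the unequal spike levels was not tested. In all other alternatives run, these counts stayed within 1.5 times. Leaving out 1 array gave 2015 to 2675 genes higher and 2222 to 3106 lower. Smad2, not called at -0.06, was called higher by 0.30 (0.301) without probe sets marked x, s or a, and the cause was not tested. Replicate numbers did not pair the samples: deviations of same-numbered arrays correlated at -0.0038, 0.0067 and -0.016. The fit with the replicate number as a block called 2568 genes higher and 2951 lower. Genes near background, where RMA compresses differences, and the 2 arrays a group limit what can be read from small differences.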

Other observations

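Several further genes changed strongly. Lgals2, a galectin of gut epithelium, fell from 13.24 and 13.31 on the control arrays to 8.40 and 8.62 on the TGF-β arrays, and Vnn1, a pantetheinase gene known from kidney and gut, from 10.60 and 10.56 to 6.07 and 5.97. Anxa10, an annexin gene of stomach epithelium, fell by 3.78 and Shtn1, which encodes shootin 1, a regulator of axon outgrowth, by 3.54. Mustn1, a gene expressed in muscle and skeletal tissue, rose from 6.66 and 6.85 to 10.18 and 10.32, and Procr, the endothelial protein C receptor gene that also marks some mammary basal cells, rose by 1.68. Of 12 bone and cartilage markers, 0 were called in limma and 0 had an unadjusted p under 0.05, and 3 were called lower with either spike scaling. Of these 12 markers, 11 were below the median gene level in both groups.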
